A study of Rattus norvegicus with 47 samples.

Results

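The genes described here encode the receptors through which blood leukocytes sense cytokines and chemokines. They were taken from the array annotation by symbol, as every probe whose gene symbol began with Tnfrsf, with Ccr or Cxcr and a digit, with Ifnar or Ifngr, or with Il, a number and r, except Cxcr2, Cxcr4 and Il1r2. This gave 62 probes for 61 genes, of 22523 probes and 13337 gene symbols on the array. The same spelling brought in Il1rn, which encodes the secreted interleukin-1 receptor antagonist and not a receptor, and it is kept and named as such.

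Whole-blood RNA of adult Sprague Dawley rats was measured on an Illumina bead array, with each array taken as 1 rat. The exposed rats had been stressed with predator scent and were classed in the labels by behaviour as rats of extreme or of minimal response. The groups compared were 8 females of extreme response, 8 females of minimal response and 6 female controls, and 8 males of extreme response, 8 males of minimal response and 8 male controls. The controls were not exposed to the scent but went through the behavioural tests, and the labels name no transgene or drug in any group.

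Cytokine receptors of the interferon, interleukin-10 and common-chain families have no kinase of their own and signal through JAK kinases and STAT factors. The TNF receptor superfamily and the interleukin-17 receptors instead recruit adaptor proteins that lead to NF-kB, and the chemokine receptors are G protein-coupled receptors that steer leukocyte migration. Neutrophils, monocytes, T cells and B cells in blood each carry their own mixture of these receptors. In whole blood, fewer cells of a type and less RNA per cell cannot be told apart.

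All values below are background-corrected, quantile-normalized log2 intensities, and differences are on the same log2 scale with the standard error (SE) of the limma model. A receptor passed the test when its limma p was below 0.05 after Benjamini-Hochberg adjustment over all 9416 tested probes; the number of rats limits the precision. Intensities of different probes are not compared with each other. Over the 46 arrays, 5921 to 8770 probes were detected. A further array, that of female control replicate 2, had almost no signal and was left out. Among the 6 female controls, replicates 1, 3, 4 and 5 stood apart: their platelet score, the mean centred log2 level of 9 platelet marker genes, ran from -3.16 to -1.32, against 0.20 and 0.51 in replicates 6 and 7. All 9 platelet markers were higher in females of extreme response, in females of minimal response and in both together than in female controls. Once those 4 arrays were left out, 0 of 9 passed in limma in either direction. The arrays stand apart by these same markers and only replicates 6 and 7 are left, so this loss is no separate support. Because these 4 arrays stood apart, comparisons with the female controls are given with and without them.

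Of the 62 probes, 36 for 35 genes were detected on at least 7 of 46 arrays (detection p below 0.05) and were tested, and 26 were not. Among the 62, 12 probes were detected on all 46 arrays and 12 on none. Of the interleukin-1 receptor family, 1 of 8 probes was tested, and that was the antagonist gene Il1rn, detected on 38 arrays. The receptor chains of this family among the 62 probes were at or near the background, with Il1r1 detected on 1 array and Il18r1, Il1rap, Il1rl1 and Il1rl2 on none. Sigirr, a receptor of the same family outside the symbol rule, was detected in 16 of 16 exposed males and 8 of 8 male controls. Of the chemokine receptors 10 of 12 probes were tested, and Ccr6, Ccr7 and Cxcr3 were detected on every array. In the TNF receptor superfamily 8 of 15 probes were tested, in the interferon and interleukin-10 receptor family 6 of 9, among the interleukin-17 receptors 3 of 4 and among the other interleukin receptors 8 of 14. Il2rg, the common gamma chain shared by several T cell cytokine receptors, was detected on 3 arrays, and Il7r, the interleukin-7 receptor of naive T cells, on 5. Detection speaks of these probes and not of the genes' presence in the cells.

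**Figure D1:**
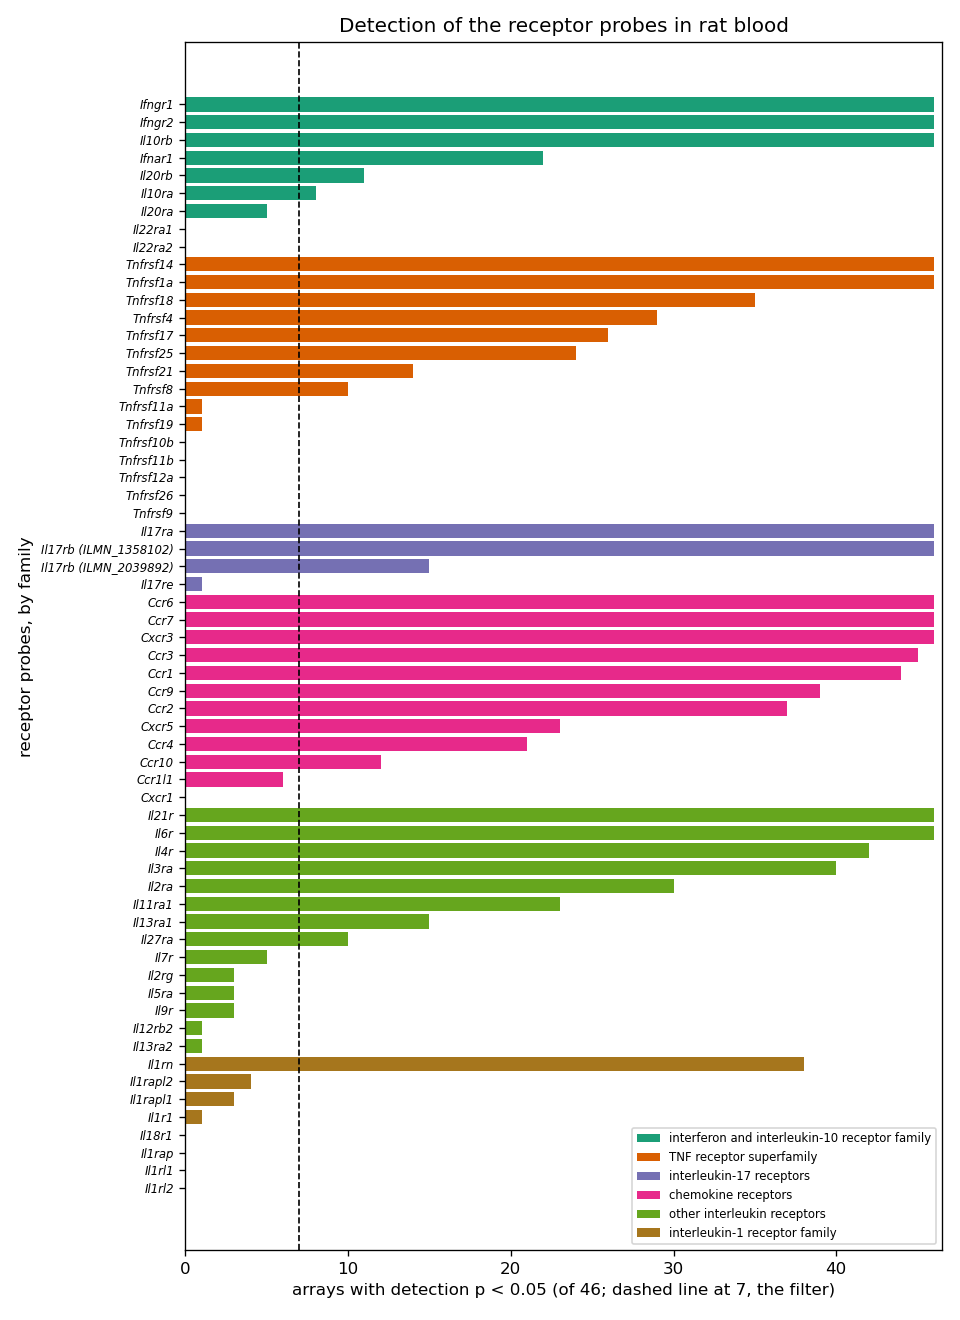
Number of the 46 arrays (horizontal axis) on which each of the 62 receptor probes (vertical axis, grouped and coloured by family) was detected at a detection p below 0.05. The dashed line marks the 7 arrays needed for testing, which 36 probes reached. The probes of the interleukin-1 receptor family shown here are detected on 4 arrays or fewer apart from that of the antagonist gene Il1rn.

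Rats of the same group differed about as much in these receptors as in other genes. The within-group SD had a median of 0.33 over the 36 tested receptor probes and of 0.30 over all 9416 tested probes. Among the receptors it was highest for Ccr9, the receptor of gut-homing lymphocytes, at 0.47, and next for Ccr6, a receptor of B cells and of T cells that make interleukin-17, at 0.43.

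The first comparison asked how females of extreme response differed from female controls. Of the receptors 4, each from a different family, were lower and 0 were higher: Ifngr2, Tnfrsf1a, Il17ra and Ccr1, a set that takes in receptors for interferon-gamma, TNF, interleukin-17 and inflammatory chemokines. These 4 of 36 (11.1%) stood against 5.36% of all tested probes called in either direction and 2.08% called lower. The median difference of the 36 receptor probes was -0.09 and that of all probes -0.01, and 25 of 36 receptor differences (69.4%) were below 0, against 51.3% of all. An unadjusted p below 0.05 was reached by 7 receptor probes.

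Ifngr2 encodes the signalling chain of the interferon-gamma receptor, which brings JAK2 to the complex. Its level ran from 6.77 over a median of 7.33 to 7.55 in females of extreme response, from 7.11 over 7.76 to 8.21 in females of minimal response and from 7.71 over 7.84 to 8.15 in female controls. Every female of extreme response lay below every female control, while the females of minimal response spanned both. The difference between extreme response and control was -0.65 ± 0.15 (SE, 8 against 6 rats, adjusted p = 0.0048). Ifngr1, the ligand-binding chain of the same receptor, differed by -0.15 ± 0.14 and did not pass (adjusted p = 0.638).

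Tnfrsf1a encodes TNF receptor 1, the main receptor for soluble TNF on most cells. It ran from 5.06 over a median of 5.83 to 6.30 in females of extreme response, from 6.03 over 6.22 to 6.83 in females of minimal response and from 5.87 over 6.63 to 7.11 in female controls. All 8 females of extreme response lay below the mean of the controls, although the ranges overlapped. The difference was -0.80 ± 0.20 (adjusted p = 0.00818).

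Il17ra encodes the chain shared by the receptors of the interleukin-17 cytokines. It ran from 7.94 over a median of 8.29 to 8.82 in females of extreme response, from 8.28 over 8.66 to 9.41 in females of minimal response and from 8.75 over 8.88 to 9.28 in female controls. The ranges of extreme response and control overlapped only at their ends. The difference was -0.65 ± 0.16 (adjusted p = 0.0097).

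Ccr1 is a receptor for inflammatory CC chemokines such as CCL3 and CCL5 on monocytes and neutrophils. It ran from 4.85 over a median of 5.25 to 5.86 in females of extreme response, where it was detected in 6 of 8 rats, from 5.57 over 6.09 to 6.38 in females of minimal response and from 5.58 over 6.15 to 6.52 in female controls, where it was detected in 6 of 6. Females of extreme response were low as a group, and the other groups overlapped almost fully. The difference was -0.85 ± 0.20 (adjusted p = 0.00588).

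The promoters of Ifngr2, Tnfrsf1a and Ccr1 are shown because these receptors were lower together in females of extreme response. Those of Il10rb and Ifnar1, higher in males of minimal response as described further on, are added because Il10rb, Ifnar1 and Ifngr2 are immediate neighbours on rat chromosome 11, with 0 other protein-coding genes between them in the RefSeq gene order. The choice was made after the values were seen, and the promoters of the other receptors that passed are not shown. Each sequence is RefSeq's, 250 bases before to 50 bases after the start of the gene in build GRCr8, on the gene's strand. They lie at chr11:44265453-44265752 (+) for Ifngr2, chr4:159836869-159837168 (+) for Tnfrsf1a, chr8:132439217-132439516 (-) for Ccr1, chr11:44132386-44132685 (+) for Il10rb and chr11:44211519-44211818 (+) for Ifnar1. Capitals mark matches on either strand to the interferon-gamma activated site TTCNNNGAA, the NF-kB consensus decamer or the GC box GGGCGG.

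Ifngr2: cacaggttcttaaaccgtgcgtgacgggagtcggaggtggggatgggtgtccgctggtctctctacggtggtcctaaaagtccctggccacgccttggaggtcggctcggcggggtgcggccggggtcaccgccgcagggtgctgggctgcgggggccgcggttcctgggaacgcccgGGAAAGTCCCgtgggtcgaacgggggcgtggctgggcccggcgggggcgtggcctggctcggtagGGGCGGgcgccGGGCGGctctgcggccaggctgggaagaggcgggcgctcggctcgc
Tnfrsf1a: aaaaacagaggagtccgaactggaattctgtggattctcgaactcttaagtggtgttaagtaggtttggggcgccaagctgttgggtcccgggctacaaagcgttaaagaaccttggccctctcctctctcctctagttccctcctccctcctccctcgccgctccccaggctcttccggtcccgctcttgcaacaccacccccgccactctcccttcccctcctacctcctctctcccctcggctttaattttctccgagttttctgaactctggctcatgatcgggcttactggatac
Ccr1: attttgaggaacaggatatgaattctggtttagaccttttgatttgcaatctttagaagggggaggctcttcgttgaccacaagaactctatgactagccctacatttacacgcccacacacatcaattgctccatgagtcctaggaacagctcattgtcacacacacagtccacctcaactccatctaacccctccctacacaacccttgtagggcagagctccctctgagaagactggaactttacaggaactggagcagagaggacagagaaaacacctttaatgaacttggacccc
Il10rb: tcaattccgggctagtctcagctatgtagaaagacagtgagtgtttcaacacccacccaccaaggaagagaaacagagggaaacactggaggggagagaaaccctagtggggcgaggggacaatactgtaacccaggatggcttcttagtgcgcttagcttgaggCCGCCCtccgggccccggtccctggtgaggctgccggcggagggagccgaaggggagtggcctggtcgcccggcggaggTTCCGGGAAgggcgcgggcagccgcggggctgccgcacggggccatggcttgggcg
Ifnar1: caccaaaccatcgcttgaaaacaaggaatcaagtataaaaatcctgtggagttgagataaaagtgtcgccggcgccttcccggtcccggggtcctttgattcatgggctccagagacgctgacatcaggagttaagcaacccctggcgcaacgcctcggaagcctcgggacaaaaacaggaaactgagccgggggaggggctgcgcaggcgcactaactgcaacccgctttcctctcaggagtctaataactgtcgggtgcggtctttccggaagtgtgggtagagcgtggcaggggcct

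Of these 5 windows, Ifngr2's is the richest in GC bases, at 74.3% with 36 CpG pairs, and Ccr1's the poorest, at 46.7% with 2 CpG pairs. Promoters in the table were found for 26 tested members, with none for Il17ra or Cxcr5. All 5 motifs below were searched on both strands. The GC box was in 16 of the 26 member promoters (61.5%) and in 33.1% of all 33469 promoters, and the ETS core AGGAAG in 8 (30.8%), against 34.5%. The interferon-gamma activated site was in 2 member promoters (7.69%), those of Ccr6 and Il10rb, against 8.87%. The NF-kB decamer was in 1 (3.85%), that of Ifngr2, against 0.111%, and its looser form, GGG and CC with any 5 bases between them, which every decamer match also fits, was in 17 (65.4%), against 47.3%. These are matches of letters and no measurement of binding. The member promoters had a median of 12 CpG pairs, against 7 over all promoters, and the part of base composition in these shares was not tested.

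**Figure D2:**
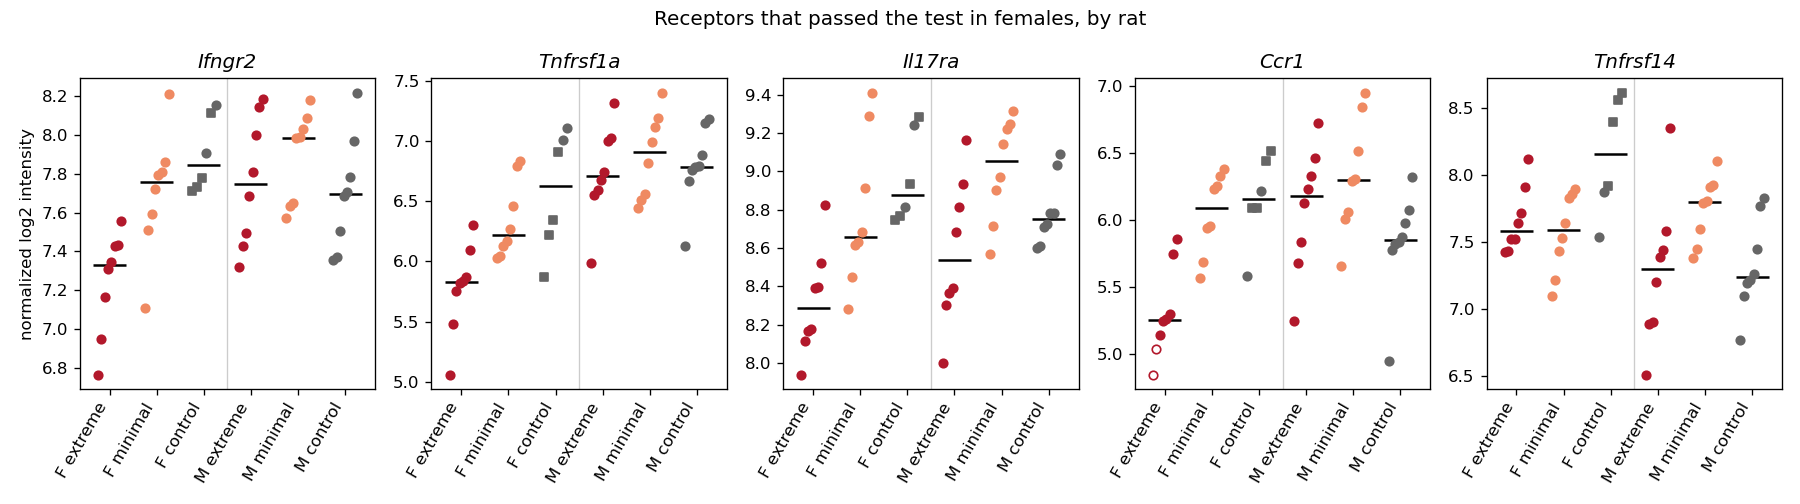
Normalized log2 intensity (vertical axis) of the 5 receptors that passed the test in a female comparison, with 1 point per rat in 6 groups (horizontal axis; F female, M male). Bars are group medians, open points are arrays where the probe was not detected, and squares are female control replicates 1, 3, 4 and 5. Ifngr2, Tnfrsf1a, Il17ra and Ccr1 have their lowest medians in females of extreme response, and Tnfrsf14 has lower medians in both exposed female groups than in female controls.

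Without female control replicates 1, 3, 4 and 5, 1 of the 4 calls was kept, on 2 control rats. Tnfrsf1a then differed by -1.28 ± 0.27 with an adjusted p of 0.0371, where its adjusted p ran from 0.00657 to 0.235 over the alternative settings. Ifngr2 and Il17ra differed by as much or more than with all 6 controls, at -0.79 ± 0.23 and -0.71 ± 0.24, but did not pass. Ccr1 differed by -0.59 ± 0.30 and did not pass. Other members moved close to 0: the first Il17rb probe (ILMN_1358102) differed by -0.59 ± 0.19 with all controls (adjusted p = 0.0502) and by -0.18 without those 4, and Tnfrsf14 by -0.49 ± 0.19 and then by -0.04. All 4 calls were lost, with the direction kept, when arrays were scaled to their 75th percentile in place of quantile normalization. The same held when all 47 arrays were fitted, which adds female control replicate 2 with its almost absent signal.

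**Figure D3:**
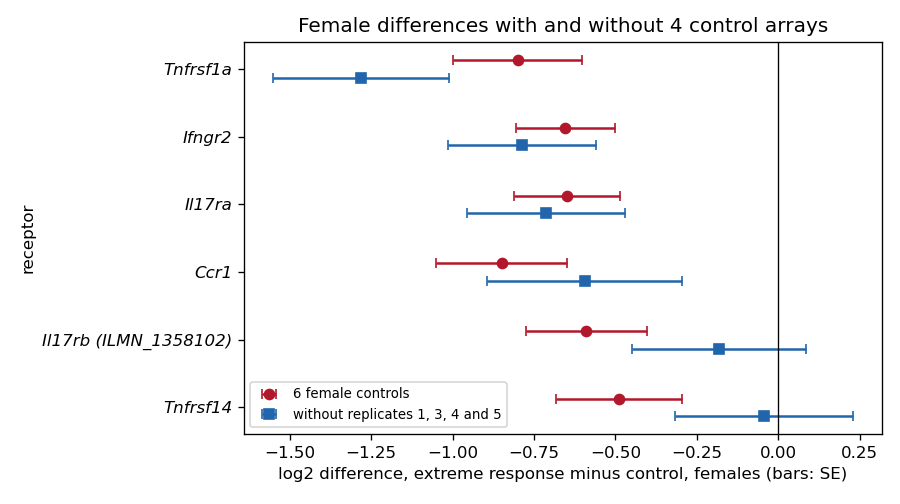
Log2 difference between females of extreme response and female controls (horizontal axis; bars are SE) for 6 receptors (vertical axis), with all 6 female controls (circles) and without control replicates 1, 3, 4 and 5 (squares). Tnfrsf1a, Ifngr2 and Il17ra lie as far or farther below 0 without those arrays, and Il17rb and Tnfrsf14 come close to 0.

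The markers of the cells that carry these receptors were set beside them. The neutrophil score, over 12 tested markers, ran from -0.76 to -0.10 in females of extreme response and from -0.38 to 0.23 in female controls, and 0 of the 12 markers passed. Among the controls it ran from -0.38 to -0.07 in replicates 1, 3, 4 and 5 and was 0.15 and 0.23 in replicates 6 and 7, so both controls left without those 4 arrays lay above every female of extreme response. The monocyte score, over 6 markers, ran from -0.32 to 0.06 in females of extreme response and from -0.24 to 0.35 in female controls, and 0 of the 6 passed. Of 10 T cell markers 2 were higher in females of extreme response, Cd8b by 0.54 ± 0.14 (adjusted p = 0.0123) and Cd3d by 0.50 ± 0.14 (adjusted p = 0.0227). Of 9 NK and cytotoxic cell markers Ctsw was higher, at 0.52 ± 0.16 (adjusted p = 0.0413), and Klrd1 lower, at -1.05 ± 0.19 (adjusted p = 0.000276). Of 5 eosinophil, basophil and mast cell markers Hdc was lower, at -1.06 ± 0.29 (adjusted p = 0.0183), and 0 of 8 B cell and 0 of 7 erythroid markers passed. Without the 4 control arrays none of these 5 genes passed: Cd8b differed by 0.47 ± 0.20, Cd3d by 0.39 ± 0.18, Ctsw by 0.15 ± 0.21, Klrd1 by -0.53 ± 0.26 and Hdc by -1.14 ± 0.44. The part of cell composition in the receptor differences was not tested.

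Ligand and signalling genes were counted in the same comparison. Of 16 tested ligand genes 3 were lower and 0 higher, at a list median of 0.01 against -0.01 over all probes. Il1b, which encodes interleukin-1 beta, was lower, at -2.01 ± 0.28 (adjusted p = 6.86e-06). Tnfsf13, the gene of the B cell factor APRIL, differed by -0.69 ± 0.19 (adjusted p = 0.0171). Ccl3, the gene of a CCR1 ligand, was detected in 0 of 8 females of extreme response and in 5 of 6 female controls, and its adjusted p was 5.01e-07. Of 20 JAK, STAT and SOCS genes 1 was lower, Stat3, a factor downstream of interleukin-6 and interleukin-10, at -0.73 ± 0.19 (adjusted p = 0.0114). Of 15 chemokine receptor signalling genes 1 was lower, Rgs2, a brake on G protein signalling, at -1.31 ± 0.27 (adjusted p = 0.00109), and 0 of 25 adaptor genes and 0 of 11 other cytokine receptors passed. Without the 4 control arrays none of these 5 genes passed, with Il1b at -0.76 ± 0.33, Tnfsf13 at -0.88 ± 0.27, Stat3 at -0.31 ± 0.24 and Rgs2 at -0.28 ± 0.34.

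The comparison of all 16 exposed females with the 6 female controls shares the controls and 8 of the exposed rats with the one above. Ifngr2 and Tnfrsf14 were lower and none was higher. These 2 of 36 probes (5.56%) stood against 6.36% of all tested probes in either direction and 2.09% lower, a share near the background in either direction. Ifngr2 differed by -0.43 ± 0.14 (adjusted p = 0.045), with 15 of 16 exposed females below the control mean. Tnfrsf14, the gene of the herpesvirus entry mediator that binds LIGHT and BTLA on lymphocytes, differed by -0.54 ± 0.17 (adjusted p = 0.0489), with all 16 below it.

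Tnfrsf14 ran from 7.42 over a median of 7.59 to 8.12 in females of extreme response, from 7.10 over 7.59 to 7.90 in females of minimal response and from 7.54 over 8.16 to 8.62 in female controls. The exposed groups were alike, and the 2 lowest controls were replicates 7 and 6, at 7.54 and 7.88. Without the other 4 controls the exposed females differed by -0.09 ± 0.26, and the call was lost, as it was in 30 of 46 fits that left out 1 array. The call of Ifngr2 was lost in 12 of 46 such fits, among them those without any 1 of the 6 controls, and without the 4 controls it differed by -0.56 ± 0.22 and did not pass. Its difference turned to 0.06 when all 47 arrays were fitted. Further receptors missed the threshold: the first Il17rb probe at -0.51 ± 0.16 (adjusted p = 0.0508), Tnfrsf1a at -0.52 ± 0.18 (adjusted p = 0.0673) and Il17ra at -0.41 ± 0.14 (adjusted p = 0.0767). Without the 4 controls these differed by -0.10 ± 0.25 for Il17rb, -1.0 ± 0.26 for Tnfrsf1a and -0.48 ± 0.23 for Il17ra, and none passed.

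The other Il17rb probe (ILMN_2039892), detected on 15 arrays, differed by -0.23 ± 0.12 in the same comparison and by -0.18 ± 0.19 without the 4 controls. Both probes of this gene, a chain of the interleukin-25 receptor, thus lay below 0 and neither passed.

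In females of minimal response against female controls, 0 of 36 receptor probes passed in limma, against 5.19% of all tested probes. An unadjusted p below 0.05 was reached by 4. The nearest was Tnfrsf14 at -0.59 ± 0.19 (adjusted p = 0.0674), followed by the first Il17rb probe at -0.43 ± 0.19, Ccr6 at 0.51 ± 0.22, Ifngr1 at -0.32 ± 0.14 and Ccr7, which guides naive lymphocytes to lymph nodes, at -0.34 ± 0.17. Without the 4 control arrays Tnfrsf14 differed by -0.14 ± 0.27, Il17rb by -0.03 ± 0.27, Ccr6 by 0.26 ± 0.33, Ifngr1 by -0.39 ± 0.22 and Ccr7 by -0.20 ± 0.25, and none passed. The 4 receptors lower in females of extreme response differed here by -0.20 ± 0.15 for Ifngr2, -0.24 ± 0.20 for Tnfrsf1a, -0.18 ± 0.16 for Il17ra and -0.11 ± 0.20 for Ccr1. Without those arrays the values were -0.33 ± 0.23 for Ifngr2, -0.72 ± 0.27 for Tnfrsf1a, -0.24 ± 0.24 for Il17ra and 0.14 ± 0.30 for Ccr1, and none passed. Of 6 monocyte markers 1 passed, Cd14, which was lower in females of minimal response, at -1.23 ± 0.24 (adjusted p = 0.000277). The list median was -0.08. Cd14 did not pass without the 4 controls, at -0.90 ± 0.34.

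The direct comparison of females of extreme with females of minimal response does not use the controls. In limma 0 of 36 receptor probes passed, against 0.34% of all tested probes, and 7 had an unadjusted p below 0.05. Ccr1 came nearest, at -0.74 ± 0.19 with an adjusted p of 0.0574, and all 8 females of extreme response lay below the mean of the females of minimal response. Its adjusted p was 0.0472 among the probes detected on at least 23 arrays and ran from there to 0.455 over the alternatives. Tnfrsf1a differed by -0.56 ± 0.18, Il17ra by -0.47 ± 0.15, Ifngr2 by -0.45 ± 0.14 and Ccr6 by -0.56 ± 0.21, with adjusted p-values from 0.133 to 0.241. In the same comparison the ligand gene Il1b was lower, at -1.21 ± 0.26 (adjusted p = 0.0218), and Stat2, a factor of type I interferon signalling, was lower, at -0.70 ± 0.16 (adjusted p = 0.039). Of 6 monocyte markers 1 passed, Cd14, which was higher, at 1.11 ± 0.22 (adjusted p = 0.0112), while the list median was -0.03. The part of monocytes in the receptor values was not tested.

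In males the first comparison set the 8 rats of minimal response against the 8 controls, and it held the most receptor calls. Il21r, Il10rb, Il10ra and Ifnar1 were higher and Cxcr5 was lower. These 5 of 36 (13.9%) stood near the 14.8% of all tested probes called in either direction. The 4 higher calls stood against 8.11% of all probes and the 1 lower call against 6.71%. Il10ra is counted among the higher calls although it reached the detection filter mainly through the exposed males. The median difference of the receptor probes was 0.10 and that of all probes -0.01.

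Il21r encodes the interleukin-21 receptor of B, T and NK cells, which pairs with the common gamma chain. It ran from 8.27 over a median of 8.76 to 9.00 in males of minimal response, from 7.58 over 8.25 to 8.93 in males of extreme response and from 7.40 over 8.07 to 8.37 in male controls. The minimal response and control ranges overlapped only at their ends, and the males of extreme response spread over both. The difference between minimal response and control was 0.71 ± 0.18 (SE, 8 against 8 rats, adjusted p = 0.00427), with 8 of 8 above the control mean. Il4r, the interleukin-4 receptor gene next to it in the RefSeq gene order, differed by -0.40 ± 0.17 and did not pass (adjusted p = 0.107).

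Il10rb, the chain shared by the receptors of interleukin-10, interleukin-22 and the lambda interferons, ran from 6.17 over a median of 6.69 to 7.55 in males of minimal response, from 5.71 over 6.38 to 6.71 in males of extreme response and from 5.27 over 6.28 to 6.39 in male controls. The median of the males of extreme response lay between the others. The difference between minimal response and control was 0.62 ± 0.17 (adjusted p = 0.00893), with 8 of 8 above the control mean. Il10ra, the ligand-binding chain of the interleukin-10 receptor, was dim: it was detected in 3 of 8 males of minimal response and 1 of 8 controls. It ran from 4.57 over 4.85 to 5.24 in males of minimal response, against 4.39 over 4.58 to 4.83 in controls, a difference of 0.32 ± 0.09 (adjusted p = 0.0158). Il10ra reached the filter of 7 arrays through the exposed males, who hold 6 of the 8 arrays on which it was detected, so its difference is one against a level near background and the test on it gives little support.

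Ifnar1, a chain of the receptor for type I interferons, was detected in 7 of 8 males of minimal response and in 2 of 8 controls. It ran from 4.95 over a median of 5.21 to 5.59 in males of minimal response, against 4.55 over 4.85 to 5.19 in controls. The difference was 0.37 ± 0.13 (adjusted p = 0.0448), and the call was lost in 12 of 46 fits that left out 1 array. Ifngr2, the third gene of the chromosome 11 cluster, differed by 0.19 ± 0.14 in these males and did not pass.

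Cxcr5, the receptor that brings B cells and follicular helper T cells into lymphoid follicles, was the receptor that fell. It ran from 4.50 over a median of 4.70 to 5.37 in males of minimal response, where it was detected in 3 of 8, from 4.73 over 5.04 to 5.85 in males of extreme response, where it was detected in 5 of 8, and from 4.99 over 5.46 to 5.67 in male controls, where it was detected in all 8. The difference between minimal response and control was -0.61 ± 0.15 (adjusted p = 0.00339), and every male of minimal response lay below the control mean. It was the only one of the 18 receptor calls of all comparisons that was kept in each of the alternatives run on it. The B cell score, over 8 tested markers, ran from -0.22 to 0.50 in males of minimal response and from 0.12 to 0.66 in male controls. Of those 8 markers 2 were lower, Fcer2 at -0.65 ± 0.20 (adjusted p = 0.0237) and Blk at -0.44 ± 0.16 (adjusted p = 0.0498). The part of B cell numbers in the Cxcr5 difference was not tested.

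**Figure D4:**
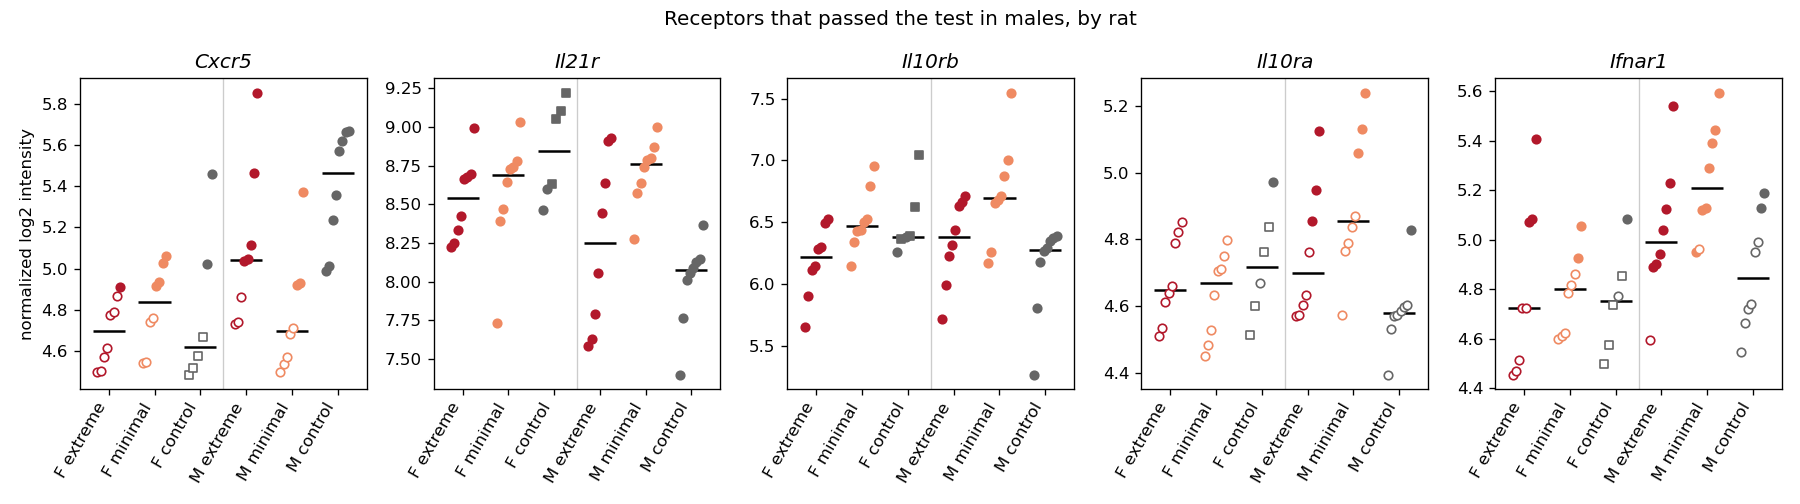
Normalized log2 intensity (vertical axis) of the 5 receptors that passed the test in a male comparison, with 1 point per rat in 6 groups (horizontal axis; F female, M male). Bars are group medians, open points are arrays where the probe was not detected, and squares are female control replicates 1, 3, 4 and 5. By their medians, males of minimal response are highest among the males for Il21r, Il10rb, Il10ra and Ifnar1 and lowest for Cxcr5, with males of extreme response between them and the controls.

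Of the 5 calls, that of Cxcr5 was kept with 75th percentile scaling, and the other 4 were lost with differences of 0.60 for Il21r, 0.58 for Il10rb, 0.29 for Il10ra and 0.32 for Ifnar1. The fit of all 47 arrays also kept only that of Cxcr5.

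Signalling genes were counted in the same males, where 14.8% of all tested probes were called. Of 20 JAK, STAT and SOCS genes 3 were higher and 1 lower. Jak1, the kinase used by interferon, interleukin-10 and common gamma chain receptors, was higher by 0.80 ± 0.17 (adjusted p = 0.000975), Jak2 by 0.54 ± 0.16 (adjusted p = 0.014) and Socs5 by 1.04 ± 0.28 (adjusted p = 0.00905), and the STAT inhibitor gene Pias4 differed by -0.71 ± 0.23 (adjusted p = 0.0293). Of 25 TNF receptor and interleukin-1 receptor adaptor genes 3 were higher and 0 lower. They were Nfkbia, the inhibitor of NF-kB and one of its targets, by 1.26 ± 0.23 (adjusted p = 0.000282), Birc2 by 0.81 ± 0.18 (adjusted p = 0.002) and Irak1 by 0.52 ± 0.16 (adjusted p = 0.0198). Of 15 chemokine receptor signalling genes 4 were higher and 0 lower, among them Rgs2 by 1.44 ± 0.25 (adjusted p = 0.000159) and the G protein subunit gene Gnai3 by 1.30 ± 0.23 (adjusted p = 0.000186). Of 16 ligand genes 1 was higher, Il1b by 0.77 ± 0.26 (adjusted p = 0.0393), and of 11 other receptors 1 was lower, Sigirr, an inhibitory receptor of the interleukin-1 family, at -0.54 ± 0.15 (adjusted p = 0.0125). The shares of adaptors, ligands and other receptors called were below that of all probes. With 75th percentile scaling 1 JAK, STAT and SOCS gene, 2 adaptors, 3 chemokine receptor signalling genes, 0 ligands and 0 other receptors passed.

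Neutrophil markers moved in both directions in these males. Of 12, 2 were higher, Mmp8 by 1.00 ± 0.23 (adjusted p = 0.00267) and Cybb by 0.61 ± 0.19 (adjusted p = 0.0244), and 1 was lower, Ncf1 at -0.61 ± 0.15 (adjusted p = 0.00461). The neutrophil score ran from -0.07 to 0.40 in males of minimal response and from -0.07 to 0.36 in male controls. Of 10 T cell markers 1 passed, Cd8a, which was higher, at 0.46 ± 0.15 (adjusted p = 0.0311), while the list median was -0.18. Of 7 erythroid markers 1 passed, Ahsp, which was lower, at -0.51 ± 0.18 (adjusted p = 0.0404), at a list median of -0.10. No marker of monocytes, platelets, NK and cytotoxic cells, or eosinophils, basophils and mast cells passed in limma. The part of these cells in the receptor differences was not tested.

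In all 16 exposed males against the same 8 controls, 3 of 36 receptor probes passed (8.33%), against 11.2% of all tested probes in either direction, 6.23% higher and 4.97% lower. Cxcr5 was lower, at -0.45 ± 0.13 (adjusted p = 0.0163), with 14 of 16 exposed males below the control mean. Il21r was higher, at 0.48 ± 0.15 (adjusted p = 0.0304), with 13 of 16 exposed males above the control mean. Il10ra also passed, at 0.25 ± 0.08 (adjusted p = 0.0406), but it was detected in 6 of 16 exposed males and 1 of 8 controls, with the limit given above. Il10rb missed the threshold at 0.42 ± 0.15 (adjusted p = 0.0501), and Il4r differed by -0.35 ± 0.15 (adjusted p = 0.111). All 3 calls were lost with 75th percentile scaling, and that of Il10ra in 13 of 46 fits that left out 1 array. The Il21r call was lost without male extreme response replicate 5 or 6 or male control replicate 1 or 5, with adjusted p-values up to 0.0976.

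In males of extreme response against the same controls, 0 of 36 receptor probes passed in limma, as did 0% of all tested probes, and 0 receptor probes had an unadjusted p below 0.05. Cxcr5 differed by -0.28 ± 0.15, Il10ra by 0.17 ± 0.09, the death receptor gene Tnfrsf21 by 0.22 ± 0.12, Il4r by -0.31 ± 0.17 and Ccr6 by -0.33 ± 0.21. The 95% interval of the Cxcr5 difference ran from -0.57 to 0.01, so a difference as large as the -0.45 of all exposed males lay within it.

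Males of extreme response set directly against males of minimal response gave 0 receptor calls in limma, against 0.138% of all tested probes, with 8 unadjusted p-values below 0.05. The smallest p-values were those of Il17ra at -0.43 ± 0.15, Il21r at -0.46 ± 0.18, Tnfrsf14 at -0.46 ± 0.18, Il10rb at -0.40 ± 0.17 and Il6r, the interleukin-6 receptor, at -0.41 ± 0.17, with adjusted p-values from 0.196 to 0.299. All 8 males of extreme response lay below the mean of the males of minimal response for Il10rb.

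Whether exposure went with different receptor changes in females and in males was tested as the exposed minus control difference of females minus that of males. The labels number females and males in separate series of rats, so sex cannot be told apart from series here. Ccr1, Il21r, Tnfrsf14 and Ifngr2 differed between the sexes, each with the lower value in females. These 4 of 36 (11.1%) stood against 11.4% of all tested probes in either direction and 5.6% lower. The largest of them was Ccr1, with -0.48 ± 0.18 in females and 0.38 ± 0.16 in males, neither of which passed alone, and a difference of -0.86 ± 0.24 between them (adjusted p = 0.0153).

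Il21r differed by -0.30 ± 0.17 in females and by 0.48 ± 0.15 in males, and the gap was -0.78 ± 0.23 (adjusted p = 0.0188). For Tnfrsf14 the differences were -0.54 ± 0.17 in females and 0.19 ± 0.16 in males, with a gap of -0.73 ± 0.23 (adjusted p = 0.0326). For Ifngr2 they were -0.43 ± 0.14 in females and 0.13 ± 0.12 in males, with a gap of -0.55 ± 0.18 (adjusted p = 0.0398). Of these 8 differences within a sex, those of Ifngr2 and Tnfrsf14 in females and of Il21r in males passed. Without the 4 control arrays Il21r in exposed females differed by 0.02 ± 0.26. The first Il17rb probe, at -0.64 ± 0.22, missed the threshold (adjusted p = 0.0531).

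The calls of these gaps rest in part on the female controls, of which 2 are left without the 4 arrays that stood apart. Without these arrays, 0 receptor probes and 0 of all tested probes passed, and the gaps were -0.60 ± 0.33 for Ccr1, -0.46 ± 0.30 for Il21r, -0.29 ± 0.30 for Tnfrsf14 and -0.68 ± 0.25 for Ifngr2. The gap of Ifngr2 was thus larger than the -0.55 ± 0.18 with all controls, at a larger SE. All 4 calls were also lost with 75th percentile scaling and in the fit of all 47 arrays.

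In this comparison 11.4% of all tested probes were called. Of 25 adaptor genes 3 had the lower value in females, Nfkbia by -1.64 ± 0.29 (adjusted p = 0.000335), Irak1 by -0.91 ± 0.20 (adjusted p = 0.00252) and Birc2 by -0.75 ± 0.23 (adjusted p = 0.0276). Of 20 JAK, STAT and SOCS genes 1 did, Jak1, by -0.81 ± 0.22 (adjusted p = 0.0103). Of 15 chemokine receptor signalling genes 2 did, Rgs2, by -2.25 ± 0.32 (adjusted p = 9.54e-06), and Gnai3, by -1.39 ± 0.29 (adjusted p = 0.0016). Of 16 ligand genes 2 did, Il1b, by -2.01 ± 0.34 (adjusted p = 0.000163), and Ccl3 (adjusted p = 1.84e-06). Ccl3 was detected in 1 of 16 exposed females and in 5 of 6 female controls. Of 11 other receptors 1 had the higher value in females, Sigirr, by 0.61 ± 0.20 (adjusted p = 0.0371). Cell markers differed as well: 9 of 9 platelet markers had the higher value in females. Of 9 NK and cytotoxic cell markers Ctsw had the higher value (0.60 ± 0.19) and Klrd1 the lower (-1.21 ± 0.23). Of 7 erythroid markers 1 passed, Slc4a1, with the lower value (-1.32 ± 0.34), at a list median of 0.006. The part of these cells in the receptor differences was not tested. Without the 4 control arrays none of these genes passed. The gaps were then -1.19 ± 0.40 for Nfkbia, -1.21 ± 0.37 for Rgs2 and -0.75 ± 0.37 for Il1b.

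Whether the extreme minus minimal difference itself differed between females and males was tested in the same way. In limma 0 receptor probes passed, against 0.0319% of all tested probes, and 3 had an unadjusted p below 0.05. The largest difference was that of Ccr7, at 0.70 ± 0.23 (adjusted p = 0.329), with 0.40 ± 0.16 in females and -0.31 ± 0.16 in males. Cxcr5 differed by -0.45 ± 0.21, Tnfrsf14 by 0.56 ± 0.25, Tnfrsf18 by 0.48 ± 0.24 and Cxcr3 by -0.38 ± 0.20.

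**Figure D5:**
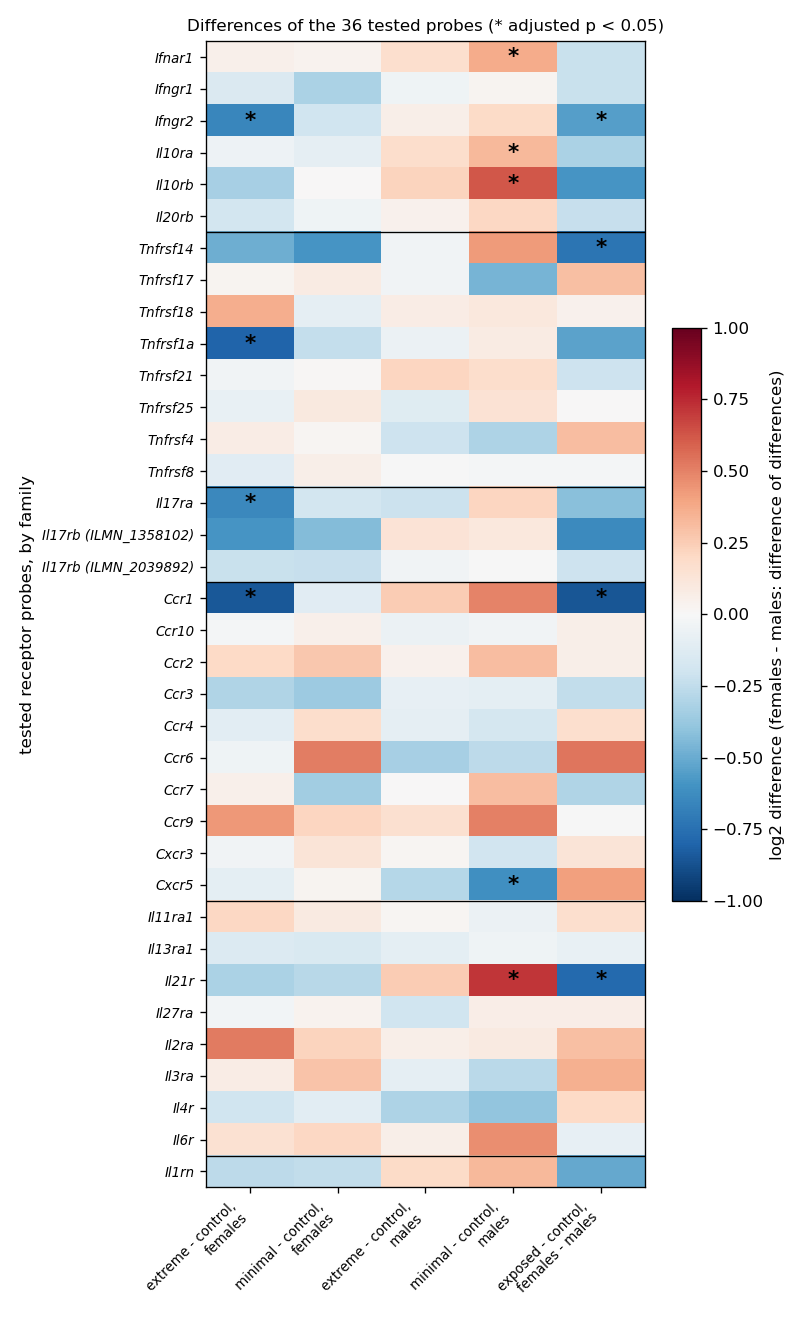
Log2 differences (colour; blue below 0, red above 0) of the 36 tested receptor probes (vertical axis, ruled off by family) in 4 comparisons with the controls of the same sex and in the difference between the sexes (horizontal axis). Stars mark an adjusted p below 0.05. The stars of females of extreme response are all blue, and 4 of the 5 stars of males of minimal response are red.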

How the data were processed

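Whole-blood RNA of 47 samples in 6 groups was measured on 1-colour Illumina bead arrays. Per the file headers, the authors' raw table gives for each array a probe intensity before normalization, and beside it that probe's detection p-value. A second deposited table holds log2 values of 46 samples; its making is not described, and it matched log2 intensities that were quantile normalized with no background step to within 5e-09. Chip positions were not used here.

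Intensities were corrected with limma's normexp model (negative controls inferred from detection p-values, offset 16), quantile normalized over 46 arrays and put on the log2 scale. The offset shrinks the differences of dim probes. Both orders of log2 and quantile normalization were run before this one was kept, and the other is given as an alternative. Probes with a detection p below 0.05 on at least 7 arrays were tested (9416). A model of 6 group means was fitted with lmFit and eBayes (limma 3.58.1, R 4.3.3; 40 residual degrees of freedom), with two-sided p-values in 10 contrasts. "Exposed" is the mean of both response groups. Groups came from the labels, and each array was treated as a separate rat. Some male rat numbers of the labels recur in another group, and whether they name the same animal is not stated. The p-values set differences between groups against the spread between arrays within groups.

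Members and gene lists were chosen with earlier results of these data known. Every receptor that passed is named, and where fewer than 5 passed in a comparison, the 5 with the smallest p; of other lists, up to 4 genes that passed. Array symbols are those of the platform annotation, of 13793 probes with 1 symbol. Gene neighbours and promoters came from RefSeq (GRCr8), whose coordinates were not tied to the probes. The test was checked on simulated data. Alternatives were the deposited log2 values, scaling to the 75th percentile, no filter, detection on at least 23 arrays, all 47 arrays, each sex alone, omission of female control replicates 1, 3, 4 and 5, the replicate number as a block, and omission of each array.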

Additional observations from a re-analysis of the deposited data

Results flagged for a closer look

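By limma, 4 receptors differed between the sexes in their exposed minus control difference. The female minus male values were -0.86 for Ccr1 (adjusted p = 0.0153), -0.78 for Il21r (adjusted p = 0.0188), -0.73 for Tnfrsf14 (adjusted p = 0.0326) and -0.55 for Ifngr2 (adjusted p = 0.0398). None of the 4 passed without female control replicates 1, 3, 4 and 5.

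Among 19 named receptor probes in 6 groups, 8 of 114 groups of values held 1 rat far from the others by Dixon's criterion, where chance gives about 1 in 20. Il6r was low in female extreme response replicate 7, at 6.26 with the next rat at 6.69, in male extreme response replicate 2, at 5.72 with the next at 6.70, and in female control replicate 4, at 5.90 with the next at 6.71. Cxcr3 was low in male extreme response replicate 6, at 5.99 with the next rat at 6.64, and in female control replicate 1, at 5.97 with the next at 6.56, and it was high in male control replicate 3, at 7.19 with the next at 6.85. Ccr6 was low in male extreme response replicate 6, at 6.67 with the next rat at 8.27. Ccr1 was low in male control replicate 4, at 4.95 with the next rat at 5.77.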

How the results depend on the processing

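The 18 receptor calls depended most on the scaling between arrays and on the female controls. With 75th percentile scaling 1 of 18 was kept, that of Cxcr5 in males of minimal response. The receptor counts were then 0 for exposed and 0 for extreme response females, 1 for females of minimal response (Ccr6, at 0.95), 0 for exposed and 1 for minimal response males, and 1 for the sex difference, which was none of the 4 reported. The fit of all 47 arrays adds female control replicate 2, the array with almost no signal, where 1115 probes were detected. It put the median of all probes in the female comparisons with controls at 0.11 to 0.12. The same single call was kept there, with counts of 0 for exposed and extreme response females, 0 for exposed males, 1 for males of minimal response and 0 for the sex difference. Of the named differences 4 turned there: Ifngr2 to 0.061 and Il17ra to 0.11 in exposed females, and Ifngr1 to 0.32 and Ccr7 to 0.46 in females of minimal response. The last 2 also turned with 75th percentile scaling, to 0.17 and 0.16. The causes were not tested.

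Without female control replicates 1, 3, 4 and 5, 9 of 18 calls were kept. Of these, 8 were calls in males, whose differences do not use the female controls, and 1 was that of Tnfrsf1a in females of extreme response. The counts were 0, 1 and 0 for exposed females, extreme response females and the sex difference, and 1 for extreme minus minimal females (Ccr1). Without a filter 12 of 18 were kept, with counts of 0 for exposed females and 2 for the sex difference, over more tested probes. Among probes detected on at least 23 arrays the 15 calls that could be refitted were kept, with counts of 3 for males of minimal response and 1 for extreme minus minimal females. The deposited log2 values kept 17, females alone 5 of 6 and males alone 6 of 8, and females of minimal response had 1 call both with the deposited values and in females alone. Log2 before quantile normalization, an alternative chosen after seeing the data, kept all 18.

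Leaving out each array in turn gave 0 to 4 calls for exposed females, 4 to 6 for extreme response females, 0 to 1 for females of minimal response, 0 to 1 for extreme minus minimal females, 1 to 4 for exposed males, 3 to 7 for males of minimal response, 1 to 6 for the sex difference and 0 to 0 for the other 3 comparisons. All 4 calls in females of extreme response, the 2 of Cxcr5, those of Il21r and Il10rb in males of minimal response and that of Ccr1 between the sexes were kept in all 46 omissions. An omission outside a comparison leaves its difference unchanged and acts only on the spread and the adjustment. The Il10ra call in males of minimal response was lost without male minimal response replicate 6, and the Il21r call between the sexes without female control replicate 3. Of the others, Tnfrsf14 and Ifngr2 between the sexes were lost in 4 and 11 omissions.

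The replicate numbers used here follow the order of the samples and are not in the labels, which give rat numbers. They therefore carry no known pairing. Of 110 same-numbered pairs 25 had correlated deviations above 0.1, with a median of -0.02, and 8 of 46 arrays matched best with their own number. With the replicate block 13 of 18 calls were kept, with counts of 0 for exposed females and 2 for the sex difference. Signal over background limits Il10ra, Ifnar1, Cxcr5 and Ccr1, each undetected in some rats of the groups compared, and 26 receptor probes were too dim to test.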
